A study of Mus musculus with 4 samples.

Results

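The 33 genes described here encode the enzymes of glycolysis and the best-known products of the hypoxia response. They were taken by name, without a threshold on any measured value, out of 33696 genes in the deposited single-cell count tables. By role, 12 are glycolytic enzymes (Hk2, Gpi1, Pfkl, Pfkp, Aldoa, Tpi1, Gapdh, Pgk1, Pgam1, Eno1, Pkm and Ldha) and 5 carry or control sugar use (Slc2a1, Slc16a3, Pfkfb3, Pfkfb4 and Pdk1). A further 4 belong to oxygen sensing and its feedback (Hif1a, Egln3, Kdm3a and Mxi1), and 4 encode mitochondrial proteins (Bnip3, Bnip3l, Higd1a and Fam162a). The remaining 8 encode secreted factors (Vegfa and Adm), enzymes of protein folding and collagen (Ero1a and P4ha1), stress and lipid proteins (Hilpda, Ndrg1 and Ddit4) and the ankyrin repeat protein Ankrd37.

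Cells read low oxygen through HIF-1α, the protein of Hif1a, which prolyl hydroxylases such as EGLN3 mark for destruction when oxygen is present. When it escapes, HIF-1α pairs with its partner ARNT on short DNA motifs and raises glucose import, glycolysis, lactate export and blood vessel growth factors, while damping mitochondrial respiration. Macrophages and neutrophils gather in poorly supplied regions of tumors and can also raise HIF-1α after inflammatory signals, so either can raise these genes.

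The cells came from subcutaneous tumors of KPC cells, a mouse pancreatic carcinoma line, grown in male C57BL/6NHsd mice of 8 to 10 weeks. One group was untreated. A further group received the STING agonist ADU-S100 once (2 µg into the tumor), another received the agonistic anti-LTβR antibody 4H8 (100 µg intraperitoneally, 4 doses) and the fourth received both as combination therapy, so that each agonist could be set against their combination. In each group 10 tumors were resected on day 14, pooled, dissociated enzymatically and sorted for live CD45+ cells before 5′ single-cell sequencing. Each group is therefore 1 library: no test between treatments was possible, no p-value is given, and every interval covers counting error only.

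The libraries held 8730 to 16322 cells and 52109958 to 85855398 transcript counts (unique molecular identifiers, UMIs), with a median of 2157.5 to 4712 UMIs per cell. After filtering, 48848 of 55090 cells remained. Of 54785 cell barcodes, 304 occurred in more than 1 library. Cells were clustered without the 33 genes and without 40 other pathway genes, so the levels below took no part in the clustering. Clusters were named by marker genes. The naming rules also counted markers among a cluster's leading genes, where the 33 genes could take places, so their levels could bear on a name. For a class of cells in a library, UMIs were summed and given per 1000000 UMIs of the class (CPM). The score of a class is the mean over the 33 genes of log2(CPM + 1). Values of 4 libraries follow the order untreated, STING agonist, LTβR agonist and combination.

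Among the broad classes the score was highest in macrophages and monocytes, at 7.65, 8.01, 7.92 and 7.82. Neutrophils lay just below, at 7.44, 7.84, 7.51 and 7.35, which was -0.32 ± 0.15 (mean difference ± SD, n = 4 libraries) and lower in 4 of 4 libraries. T cells had scores of 6.77, 6.71, 6.69 and 6.55, a difference of -1.17 ± 0.19 from macrophages. The differences were -0.87 ± 0.12 in dendritic cells and -2.02 ± 0.09 in NK cells, again lower in 4 of 4 libraries each. With 4 pairs an exact test cannot reach p under 0.05, so the number of libraries in each direction stands in its place. Plasma cells had the lowest score, 4.95, 5.29, 4.92 and 5.21, but immunoglobulin transcripts took 41.0 to 47.6% of their UMIs. Macrophage markers in plasma cells stood at 17.4 to 24.9% of their level in macrophages, and if that much of each member's level came along, it would cover more than 50% of the plasma cell level of 28 to 33 of the 33 members, so plasma cell values are not read further. B cells numbered 7 and 8 in the untreated and STING agonist libraries and were compared only in the other 2.

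**Figure D1:**
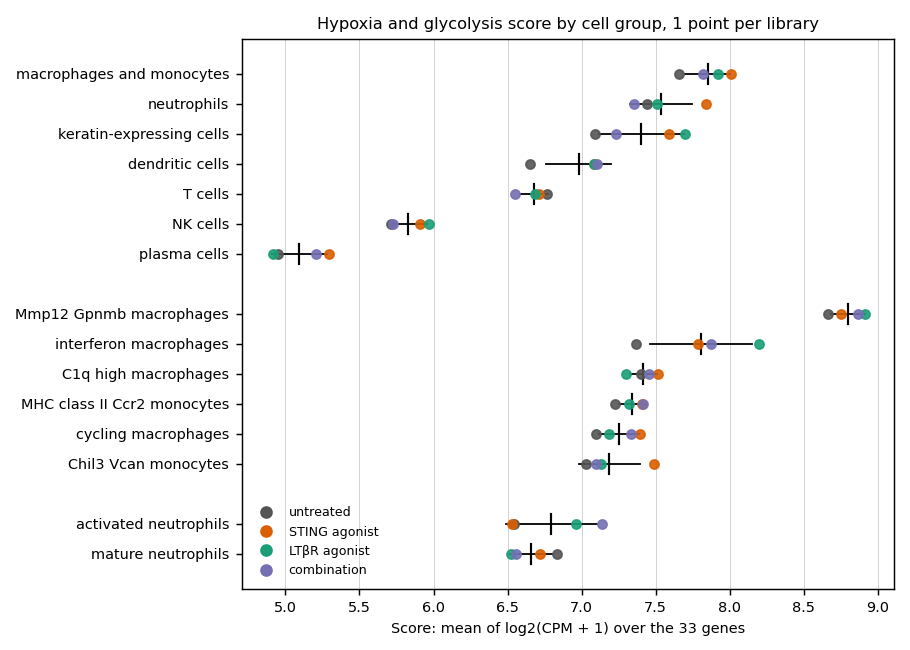
Score (mean log2(CPM + 1) over the 33 genes, horizontal axis) in cell classes and subsets, with 1 point per library coloured by treatment, a vertical tick at the mean and a line of ±1 SD over the libraries. Mmp12 Gpnmb macrophages (8.66 to 8.91) lie above every other group drawn in each library, and plasma cells lie lowest.

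Single members departed from this order. In T cells 26 of 33 members were lower than in macrophages in all 4 libraries, beside 31.1% of all genes, and 2 were higher, beside 52.3%. Those 2 were Hif1a itself, with a difference of 0.51 ± 0.26 on the log2 scale, and Kdm3a, a histone demethylase that HIF induces, with 0.30 ± 0.11. Hif1a measured 791, 798, 675 and 605 CPM in T cells and 489.6, 466, 563 and 489 CPM in macrophages. Vegfa, the vascular growth factor, was at the other end, with -3.89 ± 0.38. Egln3, the gene of an oxygen-sensing prolyl hydroxylase, was also lower in T cells in all 4 libraries (-1.93 ± 0.30), as was Mxi1 (-1.05 ± 0.46). In dendritic cells 31 members were lower (29.8% of all genes) and 2 higher (36.7%) than in macrophages in all 4 libraries. Pfkp, the platelet-type phosphofructokinase gene, was higher there by 1.16 ± 0.16 and Ndrg1 by 0.14 ± 0.03.

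In neutrophils 15 members were lower and 7 higher than in macrophages in all 4 libraries, where 71.3% of all genes were lower and 15.6% higher. Slc16a3, the lactate exporter MCT4, stood out upward with 719, 669, 879.5 and 854 CPM against 165, 255, 238 and 214 in macrophages, a difference of 1.84 ± 0.32. Egln3 (1.25 ± 0.14), Pfkfb4, a kinase that sets the flux through phosphofructokinase (1.19 ± 0.13), and Ero1a, an oxidase that forms disulphide bonds in the endoplasmic reticulum (1.01 ± 0.30), were also higher. Ndrg1, a stress response gene, was the lowest by comparison, with 52.2, 51.8, 67.3 and 78.2 CPM in neutrophils and a difference of -2.35 ± 0.30. Of the 12 glycolytic enzymes 0 were higher and 8 lower in all 4 libraries, a share of lower genes near that of all genes, and their median difference of -0.69 was smaller in size than the -1.25 over all genes. Of the 5 transport and control genes 3 were higher and 1 lower, and of the 4 sensing genes 2 were higher and 1 lower.

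Within the macrophage class the subsets spread widely. The score was 8.66, 8.75, 8.91 and 8.86 in macrophages with high Mmp12 (macrophage elastase) and Gpnmb (a glycoprotein of lipid-laden phagocytes). Macrophages rich in complement C1q had 7.40, 7.52, 7.30 and 7.45. Within a library the Mmp12 Gpnmb subset exceeded the C1q high subset by 1.38 ± 0.17, in 4 of 4 libraries, and by 0.80 ± 0.19 with each cell named by its own markers, also in 4 of 4. Summed over the 33 genes, the CPM was 2.39-fold that of the C1q high subset. Mmp12 Gpnmb cells numbered 264, 726, 622 and 607 and C1q high cells 1072, 871, 1260 and 1248. The C1q high cells joined a cluster with a score of 7.55 and a cluster with 6.59. The latter gave 182, 121, 651 and 211 of them. The difference between the Mmp12 Gpnmb and C1q high subsets was largest with the LTβR agonist, at 1.61. The part of this mix in the subset differences was not tested. Other subsets lay nearer the C1q high cells: monocytes with Chil3 and Vcan at -0.23 ± 0.16 (0 of 4 libraries higher, but 0.29 at a clustering resolution of 2 and 0.06 with each cell named by its own markers), monocytes with MHC class II genes and Ccr2 at -0.08 ± 0.09 (1 of 4), cycling macrophages at -0.17 ± 0.09 (0 of 4) and macrophages with interferon-induced genes at 0.39 ± 0.39 (3 of 4). Gene by gene, the highest mean level among the 7 subsets fell in the Mmp12 Gpnmb subset for 23 of the 33 members.

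**Figure D2:**
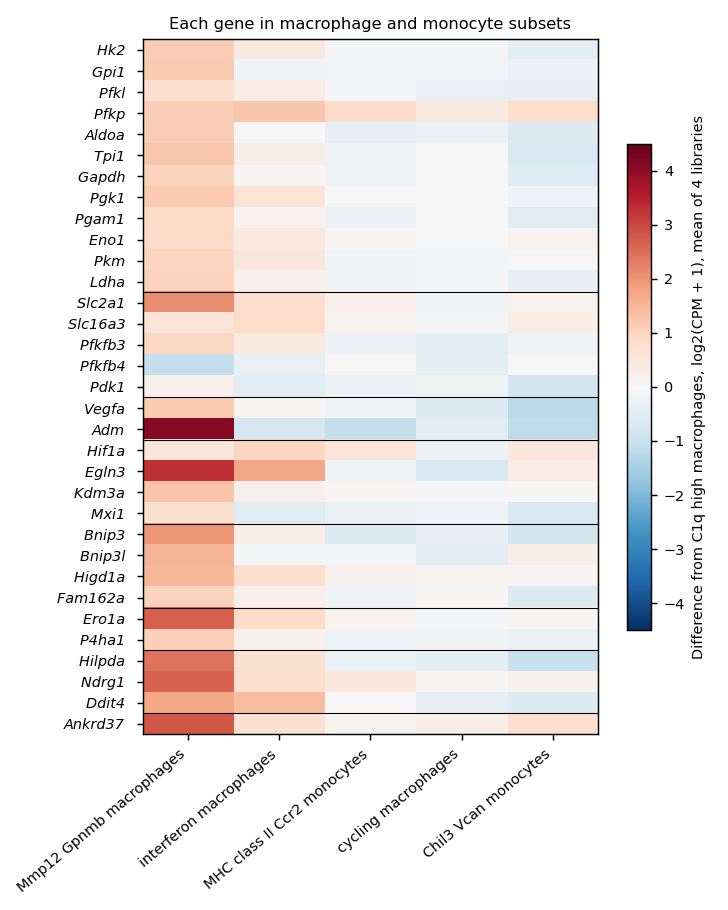
Difference of each of the 33 members (rows, grouped by role) between a macrophage or monocyte subset (columns) and C1q high macrophages, in log2(CPM + 1) as the mean of 4 libraries (red higher, blue lower). The Mmp12 Gpnmb column is red in every row but Pfkfb4, and Adm and Egln3 are darkest there.

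In the Mmp12 Gpnmb subset 32 of 33 members were higher than in C1q high cells in all 4 libraries, where 21.4% of 9789 genes were, and 1 was lower, where 51.4% were. The median difference was 1.14 over the members and -0.28 over all genes. All 12 glycolytic enzymes were higher, between 0.71 and 1.21 on the log2 scale. Aldoa, the aldolase, measured 1891, 2256, 1879.7 and 1897 CPM against 939, 1089.7, 759 and 837, and Ldha, which turns pyruvate into lactate, 1268, 1488, 1423 and 1405 against 754, 785, 657 and 629. The enzymes were thus higher together, within a narrow range of differences.

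The members beyond the enzymes spread more widely. Adm, the vasodilating peptide adrenomedullin, was at 52.2, 49.4, 90.4 and 65.1 CPM in the Mmp12 Gpnmb subset and at 2.81, 3.36, 2.0 and 2.94 CPM in C1q high cells. Its difference between Mmp12 Gpnmb and C1q high cells, 4.08 ± 0.61, was the widest of the 33, and the ranges of the 2 subsets lay far apart. After each cell was thinned to 2000 UMIs, Adm was seen in 9.88, 6.23, 10.6 and 8.93% of Mmp12 Gpnmb cells (of 253, 658, 555 and 448 deep enough), in 0.27 to 0.71% of C1q high cells and in at most 0.20% of T cells. Without thinning the share in Mmp12 Gpnmb cells was 14.6 to 22.3%.

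Egln3, the oxygen-dependent hydroxylase that HIF induces in turn, measured 346, 376, 586 and 452 CPM in the Mmp12 Gpnmb subset. C1q high cells had 48.8, 32.9, 38.8 and 57.3 CPM, a difference of 3.28 ± 0.49. Ero1a was at 819, 896, 1188 and 972 CPM against 133, 155, 144 and 169 CPM in these subsets. Hilpda, which shields lipid droplets from breakdown, gave 736, 1344, 1101 and 1117 CPM against 158, 229, 211 and 186 CPM. The range of the Mmp12 Gpnmb subset lay clear of the C1q high range for all 3 genes. Ndrg1 (2.64 ± 0.68), the glucose transporter gene Slc2a1 (2.10 ± 0.23), the mitophagy receptor gene Bnip3 (2.0 ± 0.23) and Ankrd37 (2.81 ± 0.18) followed, as differences of the Mmp12 Gpnmb subset from C1q high cells. Ankrd37 was sparse, with 119, 113, 98.3 and 100.5 CPM in the Mmp12 Gpnmb subset.

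One member went the other way. Pfkfb4 was lower in the Mmp12 Gpnmb subset in all 4 libraries, at 26.8, 19.7, 20 and 24.5 CPM against 45.7, 40.8, 57.4 and 50.9 in C1q high cells, a difference of -1.07 ± 0.30. Of the 5 transport and control genes it was the exception, since the other 4 were higher in all 4 libraries.

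Hif1a itself differed less, by 0.49 ± 0.17 between the Mmp12 Gpnmb and C1q high subsets. Ddit4, an mTORC1 inhibitor, was at 219, 336, 341 and 303 CPM in Mmp12 Gpnmb and 70.7, 121, 77.4 and 90.4 CPM in C1q high cells, with no overlap.

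Measures of handling moved with these subsets. The heat-shock genes Hspa1a and Hspa1b together were at 602.7 to 1293 CPM in Mmp12 Gpnmb cells and 30.6 to 54.9 CPM in C1q high cells. Ribosomal protein genes took 9.53 to 10.5% of UMIs in Mmp12 Gpnmb cells and 8.31 to 9.73% in C1q high cells. Early response genes were at 5584 to 7031 CPM in Mmp12 Gpnmb and 5309 to 7117 CPM in C1q high cells, so their ranges overlapped. The part of these measures in the differences was not tested. Among the clusters of these subsets, 1 C1q high cluster had a marker of another cell type (Cd4) and none of its own among its leading genes. For treatments, only counts and medians of the C1q high subset are therefore given below.

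Across the 21 macrophage and monocyte clusters the score ran from 6.40 to 8.99. In 4 of them ribosomal protein genes gave 0.82 to 1.30% of UMIs, against 6.73 to 13.9% in the other 17, and their scores were 6.40 to 7.52, against 6.59 to 8.99. The part of this difference in the scores was not tested, and correlations are given with and without those 4 clusters, a split chosen after seeing the data. Over the 21 clusters, which share libraries, the level of Hilpda had a Pearson r of 0.98 with the mean of the other members, followed by the phosphofructokinase gene Pfkl at 0.92 and Pkm, Higd1a and Ddit4 at 0.91. Over the 17, these were 0.97, 0.94, 0.91, 0.94 and 0.87. The members with a weak correlation over the 21 clusters moved more. Kdm3a went from 0.25 to 0.74, the Myc antagonist gene Mxi1 from 0.14 to 0.78, Pfkfb3 from 0.11 to 0.81 and Pfkp from 0.21 to 0.56. Hif1a, whose protein is mainly controlled through its stability, went from 0.25 to 0.46. Pfkfb4 was at -0.85 over the 21 and at -0.86 over the 17, so its level ran opposite to the mean of the others in both. These are descriptions over clusters and carry no test.

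Promoters of members that moved together are shown for the letters of the core HIF motif, ACGTG, and its variant GCGTG, on either strand. RefSeq start sites of build GRCm38.p6 gave 45 windows, from 250 bases before to 50 after a start, for 31 of the 33 members (all but Bnip3l and Ndrg1). Of these windows 36 (80.0%) held at least 1 match, against 43.8% of 32851 windows of the same length over all genes. ACGTG occurred in 55.6% of member windows and 19.6% of all windows, GCGTG in 55.6% and 32.4%, and at least 2 matches of either kind in 57.8% and 20.6%. A CACGTG counts once on each strand. The list was partly drawn from known HIF targets, so these shares describe it and are no result of the counts.

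The 6 windows below belong to members that led or opposed the differences between subsets and treatments. Capitals mark a match on the strand shown or, as CACGT or CACGC, on the other strand. In order they lie at chr6:29272376-29272675 (plus strand, Hilpda), chr14:45318523-45318822 (minus strand, Ero1a), chr7:138909457-138909756 (minus strand, Bnip3), chr10:59951721-59952020 (minus strand, Ddit4), chr7:46845554-46845853 (plus strand, Ldha) and chr9:108991652-108991951 (plus strand, Pfkfb4).
Hilpda: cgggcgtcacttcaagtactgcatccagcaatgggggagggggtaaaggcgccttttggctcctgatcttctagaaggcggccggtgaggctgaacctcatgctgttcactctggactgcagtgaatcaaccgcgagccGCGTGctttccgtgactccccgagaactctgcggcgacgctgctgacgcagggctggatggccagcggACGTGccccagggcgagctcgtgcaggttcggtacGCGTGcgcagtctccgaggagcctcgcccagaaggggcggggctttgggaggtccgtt
Ero1a: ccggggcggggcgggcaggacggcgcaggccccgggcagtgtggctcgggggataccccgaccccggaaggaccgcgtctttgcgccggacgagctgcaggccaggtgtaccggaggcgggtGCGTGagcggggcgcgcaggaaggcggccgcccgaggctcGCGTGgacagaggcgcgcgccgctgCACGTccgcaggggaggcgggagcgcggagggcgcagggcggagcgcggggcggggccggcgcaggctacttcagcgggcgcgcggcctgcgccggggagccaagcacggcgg
Bnip3: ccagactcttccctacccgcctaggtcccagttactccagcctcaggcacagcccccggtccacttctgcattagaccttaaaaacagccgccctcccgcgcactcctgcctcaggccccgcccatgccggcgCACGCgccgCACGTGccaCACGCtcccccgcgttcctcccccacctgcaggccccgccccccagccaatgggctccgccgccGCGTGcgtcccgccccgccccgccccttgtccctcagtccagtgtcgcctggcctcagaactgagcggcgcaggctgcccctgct
Ddit4: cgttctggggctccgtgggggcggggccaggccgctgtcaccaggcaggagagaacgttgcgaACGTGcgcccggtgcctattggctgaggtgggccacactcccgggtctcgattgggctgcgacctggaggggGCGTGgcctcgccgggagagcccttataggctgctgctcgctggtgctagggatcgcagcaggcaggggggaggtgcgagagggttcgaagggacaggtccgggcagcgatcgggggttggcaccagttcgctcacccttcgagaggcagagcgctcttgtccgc
Ldha: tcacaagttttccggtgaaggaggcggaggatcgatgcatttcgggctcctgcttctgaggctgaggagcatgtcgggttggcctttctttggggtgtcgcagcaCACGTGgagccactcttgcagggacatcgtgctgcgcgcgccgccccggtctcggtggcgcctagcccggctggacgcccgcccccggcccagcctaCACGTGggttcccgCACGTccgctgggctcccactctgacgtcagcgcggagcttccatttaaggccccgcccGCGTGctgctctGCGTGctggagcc
Pfkfb4: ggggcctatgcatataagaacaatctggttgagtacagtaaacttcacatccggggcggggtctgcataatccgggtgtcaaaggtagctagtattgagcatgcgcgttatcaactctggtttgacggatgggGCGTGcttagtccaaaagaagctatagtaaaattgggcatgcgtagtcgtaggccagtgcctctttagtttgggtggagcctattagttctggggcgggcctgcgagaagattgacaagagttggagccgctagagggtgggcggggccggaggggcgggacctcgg

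Hilpda, Ero1a, Bnip3 and Ldha each showed at least 3 matches in the window, Ddit4 had 2 and Pfkfb4 had 1. These windows were chosen for their members' differences, so the number of matches is not read against direction. A match describes the letters of the window and not binding.

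The first comparison set the STING agonist against no treatment in macrophages and monocytes as a whole (4115, 5962, 7607 and 8821 cells). A member was called past 1.5-fold, and was tested only where its summed UMIs in both libraries reached 200, as for all 33 members here. Shares of all genes are given for the main settings only, so counts under other settings stand without them. Against the untreated library 8 of 33 members were higher and 0 lower, where 5.36% were higher and 11.6% lower of 10485 genes. Ratios are given as log2 with their 95% interval in parentheses. The median log2 ratio was 0.34 over the members and -0.20 over all genes tested. The lipid droplet gene Hilpda measured 213, 547, 387 and 341 CPM, with a ratio of 1.36 (1.32 to 1.40) for the STING agonist. Ddit4 measured 102, 234, 168 and 139 CPM (1.2, interval 1.14 to 1.26). Both were lowest in the untreated library and highest with the STING agonist.

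Sensing and redox genes moved less. Egln3 was at 92.8, 152, 167 and 132 CPM (0.71, interval 0.65 to 0.78) and Ero1a at 235, 373, 331 and 295 CPM (0.67, interval 0.63 to 0.71). The other 4 called members were Mxi1, Slc16a3, Slc2a1 and Ndrg1, at log2 ratios of 0.59 to 0.64. No glycolytic enzyme passed 1.5-fold: the 12 lay between -0.03 and 0.45, with a median of 0.24, and the 4 mitochondrial genes between 0.28 and 0.40. Vegfa had 435, 637, 482 and 499.7 CPM (0.55, interval 0.52 to 0.58), just under the threshold, and Pfkfb4 had the lowest ratio (-0.48, interval -0.59 to -0.38). The members past 1.5-fold were thus stress, lipid, sensing and transport genes and Ero1a, a protein folding gene. The 12 glycolytic enzymes lay below them. Roles were not uniform, since Pfkfb4, with the lowest ratio, is among the transport and control genes. Differences between the roles were not tested. Scaled by median-of-ratios size factors, which put the median of all genes at 0.01 in place of -0.20, 15 members were higher and 0 lower. The share of all genes called under this scaling was not kept, so these counts cannot be set beside it.

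With the LTβR agonist 4 of 33 members were higher and 0 lower (all genes: 3.68% higher, 2.72% lower). They were Hilpda (0.86, interval 0.82 to 0.90), Egln3 (0.84, interval 0.78 to 0.91), Adm (0.79, interval 0.53 to 1.05) and Ddit4 (0.72, interval 0.66 to 0.78). Adm rested on few transcripts, with 5.91, 8.09, 10.2 and 6.83 CPM. With the combination 1 member was higher, Hilpda (0.68, interval 0.63 to 0.72), and 0 lower (all genes: 3.85% higher, 3.01% lower). The median ratio over the members was 0.20 for the LTβR agonist and 0.12 for the combination, where all genes had -0.05 and -0.09. These 3 comparisons share the untreated library, so their likeness is no independent evidence.

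Against the STING agonist alone the combination was lower in 2 members and higher in 0 (all genes: 6.4% higher, 3.38% lower). Ddit4 differed by -0.75 (-0.80 to -0.70) and Hilpda by -0.68 (-0.72 to -0.65). Against the LTβR agonist alone the combination differed past 1.5-fold in 0 of 33 (all genes: 1.27% higher, 1.03% lower). In macrophages the combination library thus lay between the untreated and the STING agonist library for Hilpda, Ddit4, Egln3 and Ero1a.

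**Figure D3:**
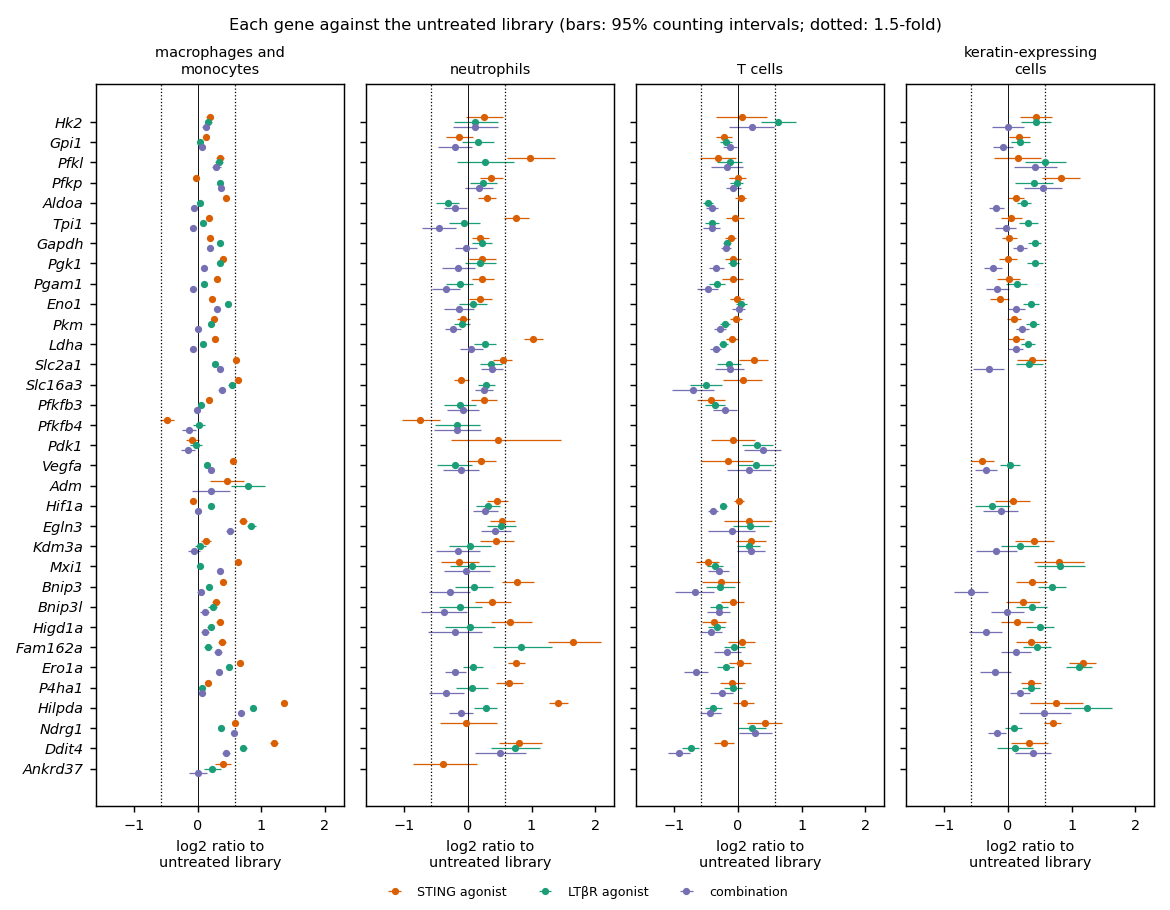
Log2 ratio of each member to the untreated library (horizontal axis) in macrophages and monocytes, neutrophils, T cells and keratin-expressing cells, with exact binomial 95% intervals for counting error. Colours mark the treatment, dotted lines mark 1.5-fold, and members under the count minimum are not drawn. Hilpda and Ddit4 lie farthest right in macrophages, and Fam162a and Hilpda in neutrophils with the STING agonist.

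The composition of the macrophage class moved with these ratios. When each cluster's share of the class was held at its share in the untreated library, the members higher went from 8 to 1 for the STING agonist, from 4 to 1 for the LTβR agonist and from 1 to 0 for the combination. The median ratio over the members went from 0.34 to 0.04, from 0.20 to 0.07 and from 0.12 to 0.05. For the STING agonist Hilpda went from 1.36 to 0.52, Ddit4 from 1.2 to 0.60, Ero1a from 0.67 to 0.09 and Egln3 from 0.71 to -0.22. With the shares held, Ddit4 was the member still past 1.5-fold for the STING agonist. A cluster led by Ccl24 and Spp1 that was left unnamed, with a score of 8.16, made up 5.57, 16.0, 13.5 and 7.78% of the class. Neutrophil markers (8 of 8 detected) summed to 190.5, 776.4, 309.6 and 314.1 CPM in macrophages. Leaving out the 2 macrophage clusters led by neutrophil or T cell genes (669 and 324 cells) gave 7 members higher for the STING agonist and 2 for the combination.

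**Figure D4:**
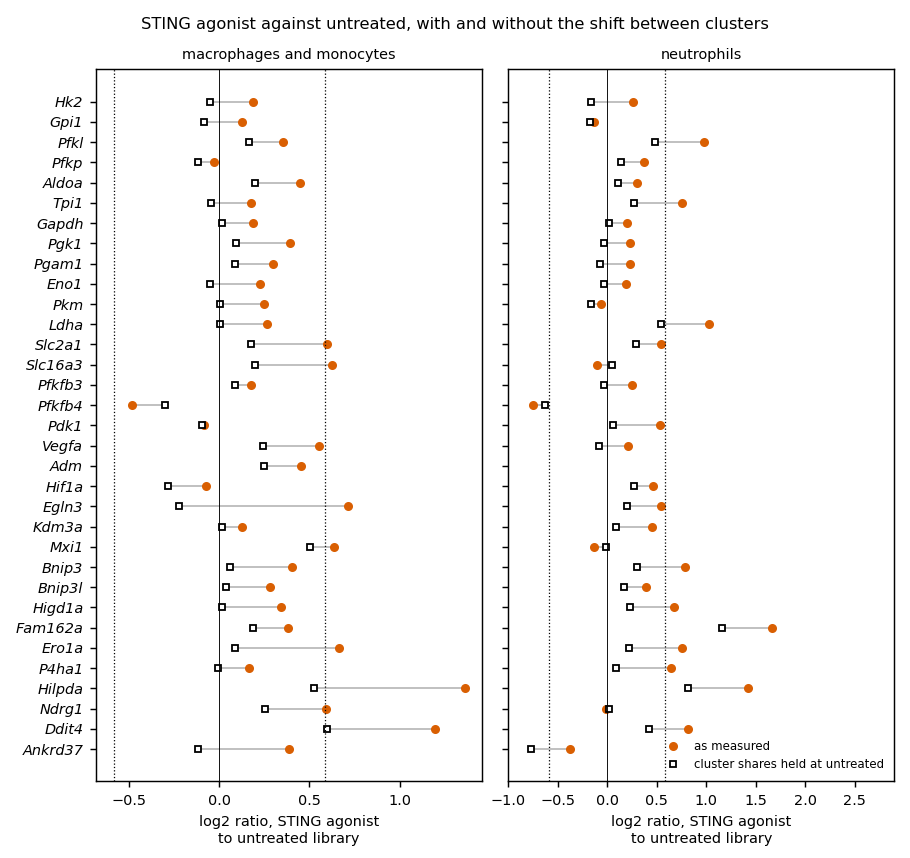
Log2 ratio of each member for the STING agonist against the untreated library, as measured (filled circles) and with cluster shares held at those of the untreated library (open squares), in macrophages and monocytes (left) and neutrophils (right). Dotted lines mark 1.5-fold. Most members lie nearer 0 with the shares held, where the median goes from 0.34 to 0.04 in macrophages and from 0.37 to 0.09 in neutrophils.

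Treatments were compared within subsets in which no cluster had more leading genes from the markers of another class than from its own, and the picture was uneven. By this rule the C1q high subset was set aside. For the STING agonist, the LTβR agonist and the combination, 1, 0 and 0 of its 32 tested members were higher than untreated. Those lower were 0, 1 and 0. Its median log2 ratios were 0.11, -0.10 and 0.05 over the members and -0.07, 0.05 and -0.03 over all genes. The share of all genes called was not kept for it. Kmo, a dendritic cell marker, stood beside Ccr2 among the leading genes of 1 MHC class II Ccr2 cluster (3989 cells), and Mmp8, a neutrophil marker, beside Gpnmb in 1 Mmp12 Gpnmb cluster (1191 cells). In Mmp12 Gpnmb cells, where the genes were already high, 2, 3 and 2 of 32 members were higher with the STING agonist, the LTβR agonist and the combination and 0 were lower (all genes: 4.95%, 2.76% and 3.09% higher, 6.0%, 2.15% and 2.18% lower). Hilpda was among them with the STING agonist, at 0.87 (0.79 to 0.95). The mix of the 2 clusters behind this subset differed by library: the cluster led by Cd200, with a score of 8.99 and Hilpda at 1753 CPM, gave 84, 468, 320 and 319 of the cells, and the one led by Adm, with 8.63 and 691 CPM, gave 180, 258, 302 and 288. The part of this mix in the ratio was not tested. In macrophages with interferon-induced genes, a single cluster of 137, 82, 354 and 184 cells, 10 of 25 members tested were higher with the STING agonist, 21 of 28 with the LTβR agonist and 12 of 26 with the combination (all genes: 9.22%, 12.5% and 9.12% higher). No member was lower in these 3 comparisons, where 4.7%, 5.38% and 2.92% of all genes were. Egln3 there was at 69.8, 135, 286 and 172 CPM, Hilpda at 156, 347, 440.0 and 401 CPM and Vegfa at 258, 404, 605 and 512 CPM, each lowest in the untreated library and highest with the LTβR agonist. The median cell depth of this cluster ran the other way for the LTβR agonist and the combination, at 7025, 8095.5, 4868.5 and 3286.5 UMIs. Its part in the ratios was not tested.

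In monocytes with Chil3 and Vcan 11 of 29 members were higher and 0 lower with the STING agonist (all genes: 7.64% higher, 6.51% lower), 0 of 30 with the LTβR agonist (all genes: 2.28% higher, 1.18% lower) and 2 of 26 higher with the combination (all genes: 3.62% higher, 1.19% lower). The combination was lower than the STING agonist in 10 of 29 members (all genes: 5.24% higher, 4.17% lower). Hilpda had 53.6, 174, 80.8 and 111 CPM (1.69, interval 1.30 to 2.13 for the STING agonist), Vegfa 118, 301, 151 and 187 CPM and Bnip3 76.4, 154, 89.7 and 98.8 CPM. All 3 were highest with the STING agonist. Different clusters held these cells: the cluster led by Mpo, with a score of 7.85, gave 26, 202, 96 and 143 of the cells, and the other, with 6.77, gave 133, 204, 481 and 352. In monocytes with MHC class II genes and Ccr2 5 of 31, 2 of 32 and 4 of 32 members were higher against the untreated library and 0 lower (all genes: 3.98%, 2.61% and 3.44% higher, 4.61%, 1.63% and 1.9% lower), with Mxi1 highest by ratio for the STING agonist (1.30, interval 1.19 to 1.41). These monocytes came from 4 clusters in a mix that differed by library, of which the one led by Ccl17, with the highest score of the 4, 7.84, gave 84, 54, 198 and 458 cells, and the largest, with 7.21, gave 635, 671, 1233 and 1450. In cycling macrophages 4 of 28 were higher and 0 lower with the STING agonist, 2 of 28 higher and 1 lower with the LTβR agonist and 6 of 29 higher and 0 lower with the combination (all genes: 2.25%, 1.91% and 3.03% higher, 3.23%, 3.68% and 3.71% lower). Of the 3 cycling clusters the one with the lowest score, 6.40, and 1.15% of UMIs from ribosomal protein genes gave 50, 21, 10 and 28 cells, while the others, with 7.25 and 7.37, gave 199, 113, 205 and 245 and 54, 50, 54 and 48. The part of either mix in these counts was not tested.

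Of the 40 other pathway genes 36 were tested in macrophages for the STING agonist, and 4 were higher and 1 lower. Pgf, placental growth factor and a relative of Vegfa, measured 28.0, 49.9, 61.7 and 87.9 CPM and had ratios of 0.83 (0.72 to 0.95), 1.14 (1.03 to 1.26) and 1.65 (1.54 to 1.77) in that order of treatments. Unlike Hilpda it was highest with the combination. Bhlhe40, a HIF-induced repressor, measured 213, 347, 395 and 388 CPM and was past 1.5-fold with each treatment. Slc16a1, another lactate carrier gene (0.71, interval 0.50 to 0.92), was higher and Ldhb, the other lactate dehydrogenase gene (-0.74, interval -1.0 to -0.48), lower with the STING agonist. For the LTβR agonist and the combination, 2 of 36 and 2 of 35 were higher and 0 lower. Car9, a carbonic anhydrase gene widely used as a hypoxia marker in carcinomas, was at 4.46 to 5.13 CPM in macrophages.

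In neutrophils (442, 4861, 933 and 1237 cells), cells that live largely on glycolysis, 32 members were tested for the STING agonist, all but Adm, and 10 were higher and 1 lower than untreated (all genes: 6.83% higher, 23.4% lower). The median ratio was 0.37 over the members and -0.25 over all genes. Fam162a, a mitochondrial protein gene, was at 57.9, 183, 104 and 90.6 CPM (1.65, interval 1.26 to 2.09) and Hilpda at 424, 1137, 515 and 393 CPM (1.42, interval 1.27 to 1.57). Both were highest with the STING agonist, with no other library close.

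In neutrophils 3 glycolytic enzymes were among the members called. Ldha was at 449, 918, 541 and 466 CPM (1.03, interval 0.89 to 1.18), Pfkl at 71.5, 141, 86.2 and 70.0 CPM (0.97, interval 0.62 to 1.37) and the isomerase gene Tpi1 at 247, 418, 237 and 179.8 CPM (0.75, interval 0.56 to 0.96). The rest were Ddit4 (0.81, interval 0.48 to 1.17), Bnip3 (0.78, interval 0.54 to 1.04), Ero1a (0.75, interval 0.62 to 0.89), Higd1a, a regulator of respiratory complexes (0.67, interval 0.36 to 1.01), and the collagen prolyl hydroxylase gene P4ha1 (0.64, interval 0.44 to 0.86). Pfkfb4 was the member lower, at 121, 72.4, 108 and 108 CPM (-0.75, interval -1.04 to -0.44). In both myeloid classes it had the lowest ratio with the STING agonist.

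With the LTβR agonist 2 of 29 members tested were higher, Fam162a (0.83, interval 0.39 to 1.32) and Ddit4 (0.74, interval 0.37 to 1.14), and 0 lower (all genes: 6.43% higher, 8.92% lower). With the combination 0 of 27 were called in either direction (all genes: 4.22% higher, 5.23% lower). With each cell thinned to 2000 UMIs, which left 207, 2854, 285 and 87 neutrophils, 0 of 16 members were called with the LTβR agonist, and 4 of 9 were higher and 0 lower with the combination. Shares of all genes were kept only for cells without thinning, so the thinned counts stand without them. The combination was lower than the STING agonist in 12 of 32 members and higher in 2 (all genes: 11.1% higher, 7.07% lower). Hilpda differed by -1.53 (-1.65 to -1.41), Tpi1 by -1.21 (-1.40 to -1.04), Bnip3 by -1.07 (-1.29 to -0.86) and Fam162a by -1.01 (-1.28 to -0.76). Scaled by median-of-ratios size factors, 17 members were higher and 0 lower with the STING agonist, and 15 lower and 0 higher for the combination against it. The shares of all genes under that scaling were not kept, so these counts cannot be set beside them. Without that scaling, the 2 higher were Ndrg1, at 52.2, 51.8, 67.3 and 78.2 CPM, and Pfkfb4. Against the LTβR agonist 0 of 30 were called (all genes: 1.48% higher, 2.22% lower). The STING agonist library also had the most neutrophils.

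Activated neutrophils, a single cluster of 81, 552, 60 and 121 cells, went the other way. There the combination was higher than the STING agonist in 9 of 14 members tested and lower in 0 (all genes: 6.57% higher, 4.72% lower), with a median ratio of 0.63. Aldoa measured 416, 318, 549 and 636 CPM and differed by 1.01 (0.66 to 1.32), and Hilpda differed by 0.64 (0.20 to 1.05), so the direction over all neutrophils does not hold in each of their clusters. With the STING agonist 2 of 14 were higher than untreated, Ero1a and Hilpda, and 1 lower, Pfkp (all genes: 7.77% higher, 5.47% lower). In the other 2 comparisons with the untreated library, 1 member reached the count minimum. Mature neutrophils, of which 1 cluster had a monocyte marker (Hp) and none of its own among its leading genes, were not compared.

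The composition of the neutrophil class moved with these ratios as well. With cluster shares held at the untreated library, the STING agonist comparison gave 2 members higher and 2 lower, and the combination against the STING agonist 1 higher and 0 lower. Fam162a, at 1.66 without a prior count, went to 1.16, Hilpda from 1.42 to 0.81 and Ldha from 1.03 to 0.54. An unnamed neutrophil cluster led by Atp6v0d2, Slc43a3, Gpnmb and Nos2 had the highest score of the 11, 8.73, and made up 11.8, 20.6, 8.47 and 3.40% of neutrophils (52, 1000, 79 and 42 cells). Its macrophage markers summed to 894.5 CPM, against 450.0 to 675.1 in 8 of the other 10 clusters, and its neutrophil markers to 34832 CPM, against 36839 to 97330.3 in those 8. In the remaining 2, macrophage markers were higher, at 2708.5 CPM (125 cells) and at 1086.4 CPM (46 mature neutrophils). Leaving out the Atp6v0d2 cluster together with 1 smaller cluster led by antigen presentation genes (125 cells) gave 9 higher and 2 lower for the STING agonist. For the combination against the STING agonist it gave 1 higher and 8 lower. The larger of both mature neutrophil clusters (1129 cells) had the lowest score, 6.61.

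Of the 40 other pathway genes only 18 passed the count minimum in neutrophils for the STING agonist. Plin2, a lipid droplet coat protein, was higher at 345, 644, 466 and 446 CPM (0.90, interval 0.74 to 1.07), as was Pgm2, a phosphoglucomutase (0.67, interval 0.28 to 1.12). G6pdx, which opens the pentose phosphate pathway, was lower at 43.1, 20.4, 60.8 and 41.9 CPM (-1.09, interval -1.58 to -0.55), as was Mpc2, a subunit of the mitochondrial pyruvate carrier (-0.88, interval -1.28 to -0.42). With the LTβR agonist 0 of 9 passed 1.5-fold.

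T cells (1374, 591, 2031 and 1620 cells) had few members called, most of them lower. For the STING agonist 0 of 30 members tested were called (all genes: 2.58% higher, 3.97% lower), though 2 were higher with likely doublets kept, while Adm, Pfkfb4 and Ankrd37 fell under the count minimum. With the LTβR agonist 1 was higher and 1 lower (all genes: 4.13% higher, 2.93% lower). Hk2, the hexokinase that traps glucose, was higher at 30.4, 31.8, 47.2 and 35.3 CPM (0.63, interval 0.36 to 0.91), and Ddit4 was lower at 207, 177, 124 and 109 CPM (-0.74, interval -0.87 to -0.61). With the combination 4 of 30 were lower and 0 higher (all genes: 2.7% higher, 2.76% lower). Ddit4 (-0.92, interval -1.10 to -0.75), Slc16a3 (-0.70, interval -1.04 to -0.37), Bnip3 (-0.68, interval -0.99 to -0.38) and Ero1a (-0.66, interval -0.85 to -0.47) were those members.

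The composition of the T cell class differed between the libraries. A cluster with Lef1 and Tcf7 among its leading genes, in which the score was 5.50 and Ddit4 stood at 49.4 CPM, made up 19.3, 38.2, 42.4 and 44.9% of the class. A cluster led by Foxp3, the regulatory T cell factor, with a score of 7.44 and Ddit4 at 679 CPM, made up 11.6, 9.48, 5.86 and 4.57%. When each cluster's share was held at that in the untreated library, 0 members were lower for any of the 3 treatments, and 1, 1 and 2 were higher. The median ratio over the members went from -0.05 to 0.20 for the STING agonist, from -0.18 to 0.16 for the LTβR agonist and from -0.28 to 0.02 for the combination. For the combination Ddit4 went from -0.92 to -0.45, Slc16a3 from -0.70 to -0.22, Bnip3 from -0.68 to -0.24 and Ero1a from -0.66 to -0.29. Ddit4 went from -0.74 to -0.29 and Hk2 from 0.63 to 0.59 for the LTβR agonist. The members past 1.5-fold with the shares held were Ndrg1 for the STING agonist (0.63), Hk2 for the LTβR agonist and Hk2 (0.61) and Ndrg1 (0.73) for the combination.

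The levels of the other 3 members lower with the combination in T cells, as measured, were 51.1, 53.6, 36.2 and 31.4 CPM for Slc16a3, 59.6, 49.7, 49.3 and 37.2 CPM for Bnip3 and 158, 161, 138 and 99.9 CPM for Ero1a, each lowest in the combination library. Macrophage markers in T cells stood at 4.46, 7.11, 10.1 and 9.20% of their level in macrophages. Were each member carried over in that proportion, this would make up over 50% of the T cell level of 2, 2, 4 and 6 members in the 4 libraries, Slc16a3 and Bnip3 among them, so these 2 are uncertain. Against the STING agonist the combination was lower in 3 of 27 members (all genes: 2.71% higher, 2.29% lower), and against the LTβR agonist 0 of 30 were called (all genes: 0.86% higher, 1.44% lower). Of the other pathway genes 0 passed 1.5-fold in T cells in any of the 5 comparisons, with 15 to 22 tested. In NK cells, with scores of 5.71, 5.91, 5.97 and 5.72, 16 to 22 members reached the count minimum, and their treatments were not compared. Neutrophil markers in T cells summed to 13.9, 585.7, 63.1 and 56.1 CPM.

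Despite the CD45+ sort, 809 cells formed a cluster that the carcinoma marker list named, with 5 of its 10 markers past the limits for naming. The mean standardized level of the fibroblast markers was above that of the carcinoma markers in this cluster. The cells held Krt8 at 297.9 to 410.8 CPM, Krt18 at 186.8 to 295.5 CPM and Krt19 at 124.8 to 192.2 CPM, with Sox9 and Msln, while Epcam, Cdh1, Krt7, Cldn4 and Cldn7 were at or near 0. Ptprc, the gene of CD45, was at 27.5 to 61.7 CPM in them and at 1079 to 1319 CPM in macrophages. The collagen genes Col1a1 and Col3a1 were at 383.4 to 957.2 CPM, so they are called keratin-expressing cells here. Having passed a sort for CD45, they need not stand for the carcinoma cells of the tumor.

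Their score was 7.09, 7.59, 7.70 and 7.23 over 152, 212, 197 and 248 cells, -0.45 ± 0.17 from macrophages and lower in 4 of 4 libraries, but 0.14 above it when each cell was named by its own markers. The pattern differed by gene: 7 members were higher and 13 lower than in macrophages in all 4 libraries, beside 42.7% and 29.2% of all genes. P4ha1, the collagen hydroxylase gene, was at 461, 590.4, 592 and 526 CPM (1.26 ± 0.12 from macrophages) and Ndrg1 at 587, 953, 624 and 519.9 CPM (1.04 ± 0.38). Pfkfb3, the inducible flux-controlling kinase gene, was at 1.49, 19.1, 15 and 8.73 CPM (-4.70 ± 1.30) and Slc16a3 at 2.97, 15.3, 12.2 and 14.3 CPM (-4.34 ± 0.72). The lactate exporter and the flux kinase were thus low in these cells, and the collagen enzyme high.

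Of the members tested in these cells, 5 of 26 were higher with the STING agonist (all genes: 8.76% higher, 3.92% lower) and 4 of 26 with the LTβR agonist (all genes: 3.91% higher, 2.48% lower), with 0 lower. Ero1a was at 201, 453, 434 and 175 CPM, with ratios of 1.17 (0.96 to 1.38) and 1.11 (0.91 to 1.31). Hilpda was at 58.7, 99.5, 139 and 87.3 CPM (1.24, interval 0.88 to 1.63 for the LTβR agonist) and Mxi1 at 63.9, 111, 113 and 57.4 CPM. Ero1a and Mxi1 were low in the untreated and the combination library and high in both single-agonist libraries. With the combination 1 of 25 was called, Bnip3, which was lower at 197, 254, 317 and 131 CPM (-0.59, interval -0.86 to -0.32), beside 6.83% of all genes higher and 3.53% lower. The combination was lower than the STING agonist in 6 of 27 members (all genes: 9.77% higher, 10.6% lower) and lower than the LTβR agonist in 7 of 27 (all genes: 2.95% higher, 2.49% lower), and higher in 0. After each cell was thinned to 2000 UMIs, the members called went from 5 to 1 for the STING agonist, from 4 to 1 for the LTβR agonist, from 1 to 0 for the combination, and from 6 to 1 and from 7 to 2 for the combination against each agonist, with 9 to 13 members tested. Ero1a led the last 2 comparisons without thinning, at -1.37 (-1.58 to -1.16) and -1.31 (-1.51 to -1.11). The median depth of these cells was 8414, 2876.5, 8914 and 5577.5 UMIs, and neutrophil markers in them summed to 8.9, 881.4, 205.5 and 160.8 CPM. The 7 members under the minimum for the STING agonist were Adm, Ankrd37, Egln3, Pdk1, Pfkfb3, Pfkfb4 and Slc16a3.

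Some values are less certain by their sequence. Eno1 and Eno1b are near copies of each other (128588 and 3064 UMIs), and Gapdh, Ldha, Pgk1, Tpi1 and Pgam1 have processed pseudogenes with which reads can be shared. Aldoa appeared under 2 identifiers, with 223164 and 65 UMIs, and the first was used. Keratin transcripts in macrophages stood at 0.26 to 0.61% of their level in keratin-expressing cells, a share that bounds the carry-over of any member into macrophages from these cells at 1.47% of its level.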

How the data were processed

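Droplet 5′ single-cell RNA sequencing gave 1 library per group from 10 pooled tumors. As deposited, the authors' files hold UMI counts per gene and cell barcode from Cell Ranger, without normalization. The submitters' notes name version 7.1.0 with the mm10 mouse genome, and the file headers name version 8.0.1.

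Cells with 300 to 5000 genes and at most 6% mitochondrial UMIs were kept. Scrublet's own threshold marked 1 cell in all, so the highest-scored cells were removed as likely doublets at 0.4% per 1000 cells (305 to 1066 per library). Counts were scaled to 10000 per cell, and 2000 variable genes (the 33 members and 40 other pathway genes excluded), 30 principal components, 20 neighbours and Leiden clustering at resolution 1 gave 37 clusters, of which 2 were unnamed. A name needed at least 3 markers detected in 10% of cells and 2-fold higher (1.5-fold for subsets). The rules for naming, including that a subset led by markers of another type stays unnamed, were set after the leading genes were seen. One macrophage subset is not reported here. Names are rebuilt, since no cell annotation of the study was used here.

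UMIs were summed per class and library, divided by the total and given as CPM. Intervals are exact (Poisson for levels, binomial for ratios, at 95%). Carry-over of free RNA was bounded by assuming that each member followed the marker genes of the other class. Cells were not treated as replicates, and depth was 52109958 to 85855398 UMIs per library over all deposited cells. All 33 members are accounted for. Named in full were up to 10 members with the largest or smallest differences between classes or subsets and, per comparison, up to 4 members called in each direction, with up to 3 of the other pathway genes called. A few more were named after their values were seen, to fill a role. The members and lists were chosen with earlier results of these data known.

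On simulated data for the combination against the untreated library, 100.0% of the genes changed 2-fold or 4-fold in either direction passed 1.5-fold, and 7 of 4346 unchanged genes did. The simulated counts came from the pooled profile of all cells of both libraries and varied by counting error only. Changed genes were taken from those well above the count minimum. The simulation therefore does not describe variation between tumors, shifts in cluster mix or groups of few cells. Python 3.11.15, NumPy 2.4.6, SciPy 1.17.1, pandas 2.3.3, scanpy 1.11.5, leidenalg 0.10.2 and matplotlib 3.10.9 were used. Alternatives changed the cell filter, doublets, resolution, naming, scaling, depth, count minimum, fold, pseudocount and score. Those without immunoglobulin genes, without cells low in ribosomal protein UMIs, without clusters led by other genes and with cluster shares held were chosen after seeing the data.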

Additional observations from a re-analysis of the deposited data

Results flagged for a closer look

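Ddit4, the gene of an mTORC1 inhibitor, moved in opposite directions by cell type with the LTβR agonist. Its log2 ratio to the untreated library was 0.72 in macrophages and monocytes and 0.74 in neutrophils, but -0.74 in T cells, with all 3 intervals clear of 0. The shares of the clusters within each class differed between the libraries, and with those shares held at the untreated library the T cell ratio was -0.29, the macrophage ratio 0.31 and the neutrophil ratio 0.57. The difference between the cell types was not tested, since each treatment has 1 library.

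Ndrg1 differed in the same way for the combination against the STING agonist. The log2 ratio was 0.60 in neutrophils and -0.87 in keratin-expressing cells, and this difference was not tested either.

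2 clusters left unnamed for low depth lie outside every comparison of the report. Their cells had a median of 0.29 and 0.27 of their libraries' median UMIs and none of the markers of their closest type among the leading genes, though 12 of 13 macrophage markers were found in 1 and 5 of 8 neutrophil markers in the other. Their member score was 7.77 in the untreated library, and higher at 8.03 with the STING agonist, 7.97 with the LTβR agonist and 8.16 with the combination. These clusters held 216, 847, 327 and 252 cells, in a mix that differed by library. The cluster with macrophage markers gave 167, 420, 293 and 206 of them, with scores of 7.69, 7.85, 7.98 and 8.18, and the one with neutrophil markers gave 49, 427, 34 and 46, with 5.93, 7.28, 5.05 and 6.27. The part of the mix in the pooled score was not tested.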

How the results depend on the processing

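Each library is the only one of its group, so no replicate could be left out. No paired analysis was possible because each group has 1 library and no test was run. Of 491 values recomputed under 18 alternatives, 373 stayed within 1.5 times the count called or within 1 SD of the score difference, 115 moved further and 3 reversed. Members higher and lower were counted together there, so only a score difference could be marked as reversed. In T cells with cluster shares held, the combination went from 4 members lower to 2 higher, which was marked as moved. Shares of all genes were not kept for these alternatives. Score differences are from macrophages for classes and from C1q high macrophages for subsets. The cause of each move was not tested, except that a lower count minimum admits more members and thinning leaves fewer UMIs. With likely doublets kept, the members called went from 0 to 2 (STING agonist), 4 to 2 (combination) and 3 to 5 (combination against the STING agonist) in T cells and 4 to 2 (LTβR agonist) and 1 to 3 (combination) in keratin-expressing cells, and the score difference was in NK cells -1.77 from -2.02, in B cells -1.37 from -1.83 and in plasma cells -2.53 from -2.76. With no upper limit on genes per cell, the members called went from 1 to 3 (combination) in macrophages, 0 to 2 (STING agonist), 2 to 1 (LTβR agonist) and 3 to 7 (combination against the STING agonist) in T cells and 5 to 3 (STING agonist) and 6 to 2 (combination against the STING agonist) in keratin-expressing cells, and the score difference was in plasma cells -2.57 from -2.76. With all deposited cells, the members called went from 1 to 3 (combination) in macrophages, 0 to 5 (STING agonist) and 3 to 7 (combination against the STING agonist) in T cells and 5 to 3 (STING agonist), 1 to 3 (combination) and 6 to 2 (combination against the STING agonist) in keratin-expressing cells, and the score difference was in NK cells -1.76 from -2.02, in B cells -1.39 from -1.83 and in plasma cells -2.34 from -2.76. At a clustering resolution of 2, the members called went from 1 to 2 (combination) in macrophages, and the score difference was in Chil3 Vcan monocytes 0.29 from -0.23 (reversed), in MHC class II Ccr2 monocytes -0.17 from -0.075 and in cycling macrophages -0.029 from -0.17. With each cell named by its own markers, the members called went from 8 to 5 (STING agonist) and 2 to 1 (combination against the STING agonist) in macrophages, 0 to 2 (STING agonist) in T cells and 1 to 2 (combination) and 7 to 4 (combination against the LTβR agonist) in keratin-expressing cells, and the score difference was in NK cells -1.61 from -2.02, in B cells -0.15 from -1.83, in plasma cells -0.39 from -2.76, in dendritic cells -0.36 from -0.87, in keratin-expressing cells 0.14 from -0.45 (reversed), in Mmp12 Gpnmb macrophages 0.80 from 1.38, in Chil3 Vcan monocytes 0.059 from -0.23 (reversed) and in MHC class II Ccr2 monocytes -0.21 from -0.075. With median-of-ratios size factors, the members called went from 8 to 15 (STING agonist) and 1 to 3 (combination) in macrophages and 11 to 17 (STING agonist) and 0 to 1 (combination) in neutrophils, and the score difference was in B cells -1.87 from -1.83. With ribosomal protein and mitochondrial genes left out of the total, the score difference was in B cells -1.71 from -1.83. With each cell thinned to 2000 UMIs, the members called went from 2 to 0 (LTβR agonist) and 0 to 4 (combination) in neutrophils, 0 to 2 (STING agonist), 2 to 1 (LTβR agonist), 4 to 2 (combination) and 3 to 1 (combination against the STING agonist) in T cells and 5 to 1 (STING agonist), 4 to 1 (LTβR agonist), 1 to 0 (combination), 6 to 1 (combination against the STING agonist) and 7 to 2 (combination against the LTβR agonist) in keratin-expressing cells, and the score difference was in neutrophils -0.51 from -0.32 and in B cells -1.92 from -1.83. With a minimum of 50 UMIs, the members called went from 0 to 2 (combination) in neutrophils, 0 to 2 (combination against the LTβR agonist) in T cells and 5 to 8 (STING agonist), 4 to 7 (LTβR agonist) and 1 to 3 (combination) in keratin-expressing cells. With no minimum count, the members called went from 2 to 4 (LTβR agonist) and 0 to 3 (combination) in neutrophils, 0 to 1 (STING agonist) and 0 to 3 (combination against the LTβR agonist) in T cells and 5 to 11 (STING agonist), 4 to 10 (LTβR agonist), 1 to 5 (combination), 6 to 10 (combination against the STING agonist) and 7 to 11 (combination against the LTβR agonist) in keratin-expressing cells. Past 2-fold in place of 1.5-fold, the members called went from 8 to 2 (STING agonist), 4 to 0 (LTβR agonist), 1 to 0 (combination) and 2 to 0 (combination against the STING agonist) in macrophages, 11 to 3 (STING agonist), 2 to 0 (LTβR agonist) and 14 to 5 (combination against the STING agonist) in neutrophils, 2 to 0 (LTβR agonist), 4 to 0 (combination) and 3 to 0 (combination against the STING agonist) in T cells and 5 to 1 (STING agonist), 4 to 2 (LTβR agonist), 1 to 0 (combination), 6 to 1 (combination against the STING agonist) and 7 to 2 (combination against the LTβR agonist) in keratin-expressing cells. With a pseudocount of 0.1 CPM, the score difference was in NK cells -2.12 from -2.02 and in B cells -1.90 from -1.83. With a pseudocount of 10 CPM, the score difference was in NK cells -1.73 from -2.02, in B cells -1.65 from -1.83 and in plasma cells -2.37 from -2.76. As log2 of the summed CPM, the score difference was in T cells -0.88 from -1.17, in NK cells -1.77 from -2.02, in dendritic cells -0.71 from -0.87 and in keratin-expressing cells -0.12 from -0.45. With immunoglobulin genes left out of the total, the score difference was in plasma cells -1.97 from -2.76. With cells under 3% ribosomal protein UMIs left out, the members called went from 1 to 2 (combination) in macrophages, and the score difference was in B cells -1.89 from -1.83. With clusters led by genes of another class left out, the members called went from 1 to 2 (combination) in macrophages and 2 to 1 (LTβR agonist) and 14 to 9 (combination against the STING agonist) in neutrophils, and the score difference was in neutrophils -0.60 from -0.32. With cluster shares held at the untreated library, the members called went from 8 to 1 (STING agonist), 4 to 1 (LTβR agonist), 1 to 0 (combination) and 2 to 0 (combination against the STING agonist) in macrophages and 11 to 4 (STING agonist), 2 to 1 (LTβR agonist), 0 to 1 (combination) and 14 to 1 (combination against the STING agonist) in neutrophils and 0 to 1 (STING agonist), 2 to 1 (LTβR agonist), 4 to 2 (combination), 3 to 1 (combination against the STING agonist) and 0 to 1 (combination against the LTβR agonist) in T cells. Over the alternatives that recomputed scores, the Mmp12 Gpnmb subset kept a score above the C1q high subset. The count minimum, fold and cluster share alternatives recomputed counts only. Depth limits the small groups, with 25 to 27 members tested in keratin-expressing cells, 16 to 22 in NK cells and 1 to 14 in activated neutrophils.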
